A study of Mus musculus with 4 samples.

Results

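Proteasome genes were examined in spatial transcriptomes of mouse brain sections cut at the level of the dorsal hippocampus. The set holds 43 of the 32285 genes counted. It takes every symbol that begins with Psma, Psmb, Psmc or Psmd and a digit, together with Psme1, Psme2, Psme3 and Psmf1. It leaves out symbols of pseudogenes and antisense transcripts, of which none was counted here, and the unrelated Psmc3ip. Psme4, a further activator gene, and Psme2b also fall outside the set. By role the 43 genes are 7 of the 20S alpha ring, 7 of the constitutive 20S beta ring, 3 immunoproteasome beta genes and 2 tissue-specific genes. There are also 6 ATPase genes and 11 non-ATPase genes of the 19S cap, 3 chaperones of its base, 3 activators and 1 inhibitor.

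The study asked which transcripts differ while a spatial avoidance memory is kept without being recalled. In active place avoidance, a mouse on a rotating arena learns to keep out of a zone where it receives a mild foot shock. Sections came from 2 trained mice, for which the shock was on, and 2 untrained mice, which were placed in the same arena with the shock off. Brains were taken 3 days after a retention test, and 1 section of each mouse was placed on a Visium array, on which each spot captures the RNA of the several cells above it. All 4 mice were males of the genotype ArcCreERT2::eYFPflx, in which cells that express Arc, a gene switched on by neuronal activity, become marked with eYFP once tamoxifen is given. All were adults on the C57BL/6 background and received 4-hydroxytamoxifen under isoflurane, so both groups share the transgenes, the drug and the anesthetic. The section of each mouse is the replicate, and the sections are called Trained 1, Trained 2, Untrained 1 and Untrained 2.

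Depth differed between sections. Trained 1 gave 7119995 UMIs (unique molecular identifiers, 1 for each captured molecule) over 2865 spots, and Trained 2 gave 10330015 UMIs over 3055 spots. Untrained 1 gave 3560294 UMIs over 2359 spots, and Untrained 2 gave 6581748 UMIs over 2661 spots. The median number of UMIs in a spot was 1936, 2493, 1048 and 1851 in that order. Trained 2 also stood apart in composition: mitochondrially encoded genes took 6.83% of its UMIs, against 12.2%, 12.1% and 11.6% in Trained 1, Untrained 1 and Untrained 2. The summed choroid plexus markers (5 of 5 listed genes detected, led by Ttr) stood at 524 CPM (UMIs in 1000000 UMIs) in Trained 2 and at 5510.0, 2452 and 5270.5 in the same order of the other sections. White matter markers (7 of 7, led by Mbp) stood at 6935 CPM in Trained 2 and at 4144, 4577 and 4618 in the others, and thalamus markers (7 of 7, led by Prkcd) at 859 against 476, 579 and 491. Other lists parted by group, trained before untrained. Striatum markers (5 of 5, led by Ppp1r1b) stood at 412 and 455 against 334 and 304, layer 6 markers (6 of 6, led by Rprm) at 211 and 217 against 203 and 194, and medial habenula markers (6 of 6, led by Tac2) at 134 and 119.7 against 95.8 and 116. CA1 markers (6 of 6, led by Wfs1) stood at 167 and 144 against 208 and 194, and DG markers (6 of 6, led by Fam163b) at 136 and 98.1 against 137 and 144. Inhibitory neuron markers (5 of 5, led by Sst, or Gad1 in Trained 2) stood at 1451 and 1467 against 1351 and 1267. The part of composition in the comparison of trained and untrained mice was not tested. Pairs of sections shared between 1353 and 2413 spot barcodes, which on Visium name places on a common printed grid and not cells.

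The proteasome degrades proteins that carry ubiquitin chains. Its 20S core is a barrel of outer alpha rings, which gate entry, and inner beta rings, in which Psmb5, Psmb6 and Psmb7 cut after different kinds of residue. The 19S cap binds the ubiquitin chain, removes it, and threads the unfolded protein into the core with its ring of ATPases. In immune cells and after interferon, Psmb8, Psmb9 and Psmb10 replace the constitutive catalytic subunits and Psme1 and Psme2 form an alternative cap, and in neurons the proteasome takes part in remodelling of synapses.

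Every one of the 43 genes had at least 1 UMI, and 39 were above 10 CPM in each section. Together they held 128565 UMIs. Their summed level was 4619 CPM in Trained 1, 4863 in Trained 2, 4291 in Untrained 1 and 4582 in Untrained 2, so that 0.429% to 0.486% of all captured molecules were proteasome transcripts. Levels of different genes are compared here as captured molecules: a 3′ UMI count is not divided by gene length, and genes may differ in how well they are captured. Between them the 20S beta genes held 29.3% of the proteasome UMIs (mean of 4 sections, SD 0.353), the 20S alpha genes 23.5% (SD 0.641), the 19S non-ATPase genes 22.7% (SD 0.375) and the 19S ATPase genes 16.5% (SD 0.443). Activators took 3.42%, base chaperones 2.19%, immunoproteasome genes 1.60%, the inhibitor 0.788% and the tissue-specific genes 0.0116%.

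In the alpha ring, mean levels ran from 186 CPM for Psma7 down to 119 for Psma5. In the constitutive beta ring, the highest was Psmb1 at 250.3, a non-catalytic subunit, and the lowest Psmb2 at 126. Psmb5, the chymotrypsin-like subunit, stood at 218, 238, 205 and 219 CPM in Trained 1, Trained 2, Untrained 1 and Untrained 2. These sections lay close together and the groups overlapped. Psmb6, the caspase-like subunit, stood at 180.2, 199, 139 and 173, with both trained sections above both untrained ones. Psmb7, the trypsin-like subunit, stood at 179, 188, 152 and 188, and there the groups overlapped.

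The 3 immunoproteasome genes were captured at very different levels. Psmb10 stood at 72.1 and 70.3 CPM in the trained sections and at 59.5 and 64.0 in the untrained ones, so the groups did not overlap. Psmb8 had 143 UMIs in all and stood at 3.23, 6.68, 3.37 and 5.93 CPM in Trained 1, Trained 2, Untrained 1 and Untrained 2. Psmb9 had 69 UMIs in all and stood at 2.53, 2.81, 1.40 and 2.58. Both Psmb8 and Psmb9 overlapped between groups. Set against the constitutive subunit it can replace, Psmb10 made up 28.7%, 27.2%, 28.2% and 25.4% of the UMIs of Psmb10 and Psmb7, with Wilson 95% intervals between 23.4% and 31.5%. Psmb8 made up 1.46%, 2.73%, 1.62% and 2.63% of the UMIs of Psmb8 and Psmb5. Psmb9 made up 1.38%, 1.39%, 0.998% and 1.47% of the UMIs of Psmb9 and Psmb6. These intervals cover counting error only, and the ratios compare genes that may be captured with different efficiency. Psma8, an alpha subunit of the testis, had 9 UMIs, and Psmb11, a beta subunit of the thymic cortex, had 7. Untrained 2 had 0 UMIs of Psmb11, which allows up to 0.456 CPM.

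Among the 19S ATPases, which pull the substrate in, levels ran from 152 CPM for Psmc5 to 101 for Psmc4. Among the non-ATPase subunits they ran from 151.5 for Psmd2, a scaffold of the base, to 37.8 for Psmd11, a subunit of the lid. The base chaperones ran from 48.5 for Psmd5 to 23.7 for Psmd10. Psme3, which forms a cap of its own in the nucleus, stood at 62.1 and 53.8 in the trained and at 71.3 and 66.7 in the untrained sections, which did not overlap. Psme1 stood at 64.7, 57.1, 52.5 and 62.4, and Psme2, its partner in the interferon-inducible cap, at 38.5, 34.8, 27.0 and 36.2, in the order Trained 1, Trained 2, Untrained 1, Untrained 2. Psmf1, which binds the 20S core as an inhibitor, stood at 38.5, 36.9, 32.0 and 37.4. For Psme1, Psme2 and Psmf1 the groups overlapped, with Untrained 1 lowest in each.

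**Figure D1:**
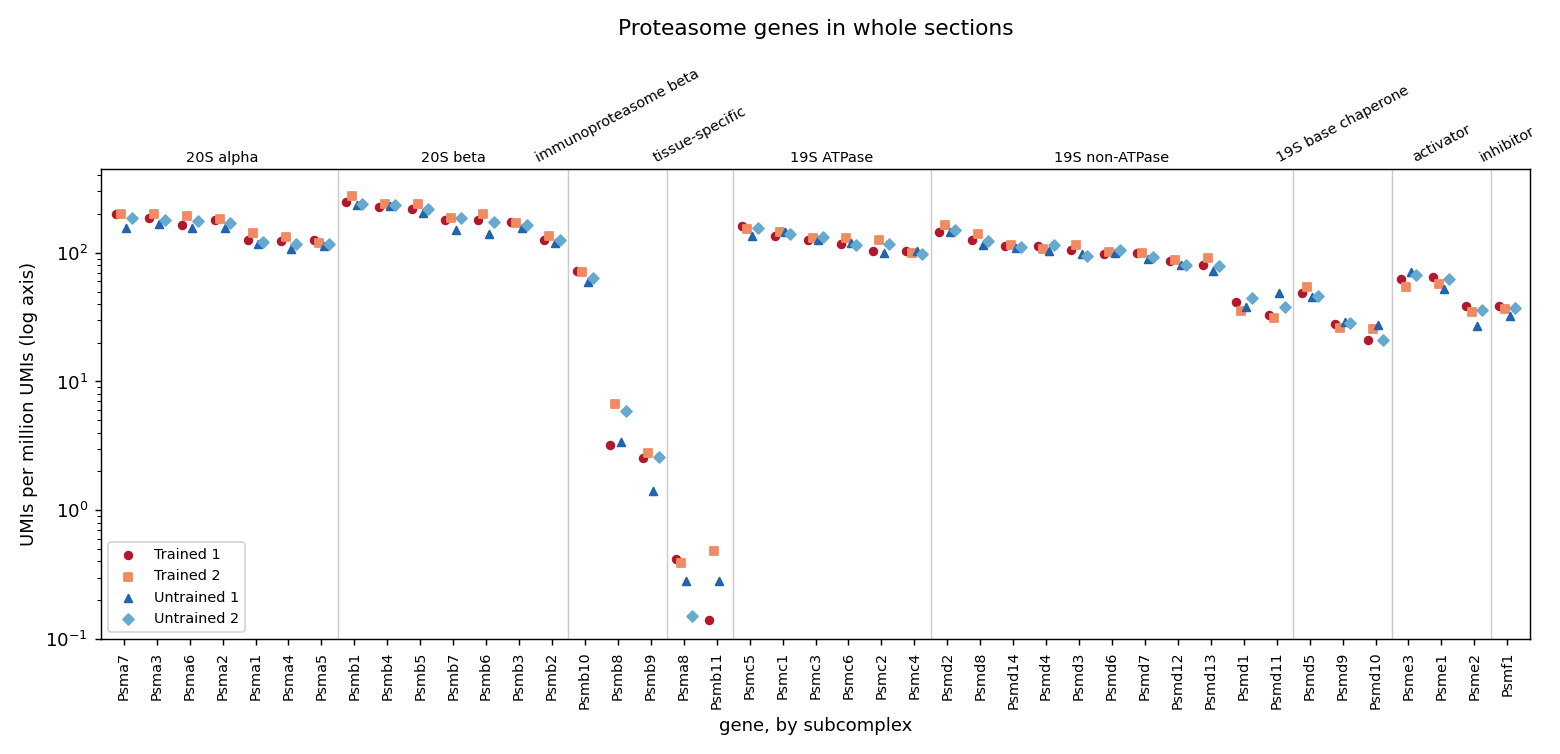
Level of each proteasome gene in whole sections, in CPM on a log axis, with 1 point for each section and genes grouped by subcomplex. Psmb8, Psmb9, Psma8 and Psmb11 lie far under the other genes, Psmb10 stands at a mean of 66.5, and Psmb11 in Untrained 2 is not drawn because its count is 0.

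Over whole sections, no proteasome gene passed the test of trained against untrained mice. Of the 41 genes tested, 0 had an adjusted p under 0.05 (edgeR quasi-likelihood test, Benjamini-Hochberg over all genes), where 0.0145% of 13810 genes did. At an unadjusted p under 0.05 there were 2, where 7.96% of all genes were, and DESeq2 called 0. The median log2 fold change was 0.02 over the proteasome genes and 0.01 over all genes, with 25 proteasome genes above 0 and 16 below. Psma8 and Psmb11 had too few counts to be tested. Leaving out Trained 1 changed the count: 2 proteasome genes, Psmd11 at −0.60 and Psme3 at −0.49, were then called, among 848 genes in all. Leaving out Trained 2 gave −0.39 and −0.17, leaving out Untrained 1 gave −0.32 and −0.28, and leaving out Untrained 2 gave −0.69 and −0.39, with neither gene called.

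Psmd11 had the smallest p. It stood at 33.1 and 31.1 CPM in the trained sections and at 48.9 and 38.0 in the untrained ones, which did not overlap, for a log2 fold change of −0.50 (SE 0.16, adjusted p = 0.582, edgeR; lower in both trained sections). Psme3 came next at −0.33 (SE 0.13, adjusted p = 0.597, edgeR), then Psmb6 at 0.20 (SE 0.13, adjusted p = 0.713), which ran from 0.06 without Untrained 1 to 0.36 without Untrained 2. The other catalytic and regulatory genes lay nearer to 0 for their error. Log2 fold changes were 0.02 (SE 0.11) for Psmb5, 0.03 (SE 0.13) for Psmb7, 0.12 (SE 0.12) for Psmb10, −0.01 (SE 0.14) for Psme1, 0.11 (SE 0.17) for Psme2 and 0.03 (SE 0.14) for Psmf1. The sparse Psmb8 and Psmb9 had wide errors, at −0.03 (SE 0.41) and 0.26 (SE 0.44). With 1 section left out at a time, Psmb10 ran from 0.04 to 0.19 and Psme2 from −0.05 to 0.36, and Psmb5, Psmb7, Psmb8, Psmb9, Psme1 and Psmf1 took both signs as Psme2 did.

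More proteasome genes were higher in both trained sections than lower when counts were divided by all UMIs. The numbers of higher and lower genes lay nearer to each other when abundant genes were left out of the total. By CPM of all UMIs, 17 of the 41 genes were higher in both trained sections than in either untrained one, where 28.8% of all genes were, and 3 were lower (Psmd9, Psmd11 and Psme3), where 12.1% of all genes were. With mitochondrially encoded genes, Bc1, Ttr, Gm42418 and hemoglobin genes left out of the total, 11 proteasome genes were higher, where 21.1% of all genes were, and 7 were lower, where 18.6% were. The summed proteasome level was 1.07 times as high in the trained as in the untrained sections with all UMIs in the total and 1.01 times with those genes left out, at 5445, 5321, 5185 and 5428 in Trained 1, Trained 2, Untrained 1 and Untrained 2. The groups did not overlap by the former total and overlapped by the latter. The part of the low mitochondrial and choroid plexus shares of Trained 2 in this was not tested.

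Although the tissue is labelled hippocampus, the sections also held cortex, thalamus, hypothalamus and other areas by their marker genes. Of 10940 spots, 4075 were placed in 1 of 14 regions. Marker genes placed 198 spots in CA1, 115 in CA3 and 217 in the dentate gyrus (DG), which all 4 sections held, and 850 in the thalamus. The 9 regions with at least 20 spots in each section were tested; CA3, layer 5 of the cortex, choroid plexus, ependyma and meninges fell short.

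Among the 9 tested regions, averaged over the 4 sections, the summed proteasome level was highest in the hypothalamus, at 4935 CPM (SD 392), and lowest in white matter, at 4212 (SD 389). Between them came the medial habenula at 4897 (SD 300.2), layer 6 of the cortex at 4882 (SD 175), CA1 at 4877 (SD 153), DG at 4567 (SD 257), the thalamus at 4534 (SD 215), the upper cortical layers at 4478 (SD 323) and the striatum with other medium spiny neurons at 4228 (SD 298). Neighbours in this order differed by less than 1 SD, DG from CA1 excepted.

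Over the 9 regions, 9 of the 37 proteasome genes tested varied (24.3%; edgeR quasi-likelihood F-test, Benjamini-Hochberg over all genes), where 60.6% of 6630 genes did. These 9 were Psme1, Psmb10, Psmb6, Psmb5, Psme2, Psmc1, Psmb1, Psmd8 and Psmf1, and Psme1 had the smallest p (adjusted p = 8.63e-11, edgeR). DESeq2 called 7. Without Untrained 2 the count was 2, and without Trained 1 or Trained 2 it was 5. Psme1 had the widest range of mean levels among the tested genes, 3.40 times from the thalamus to the hypothalamus, followed by Psme2 at 2.88 times from layer 6 to the hypothalamus. Psma8, Psmb8, Psmb9, Psmb11, Psmd9 and Psmd10 were too sparse to be tested.

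Set against the mean of the other regions, 12 of 333 pairs of gene and region passed (3.60%), 8 higher and 4 lower, in 10 genes, where 19.5% of the 59670 pairs over all genes did. Of the 10, Psmd12, Psmb2 and Psmd7 did not vary by the F-test over the 9 regions (adjusted p = 0.101, 0.115 and 0.214, edgeR). Of the 12, 11 had the same direction in 4 of 4 sections, and Psmb1 in the hypothalamus had it in 3.

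In the hypothalamus, 6 proteasome genes passed and all 6 were higher, where 24.8% of all genes passed in either direction. Psme1, Psme2 and Psmb10 had the largest fold changes. Psme1 stood at 140.3, 107, 111 and 114 CPM in the hypothalamus of Trained 1, Trained 2, Untrained 1 and Untrained 2, from 58, 67, 12 and 48 UMIs. Every section lay above its own mean elsewhere (53.8 over the other regions and sections), and the trained and untrained sections overlapped. Its log2 fold change was 1.15 (SE 0.15, adjusted p = 2.33e-09, edgeR; higher in 4 of 4 sections). Psme2 stood at 48.4, 51.1, 36.9 and 61.5, against a mean of 34.9 elsewhere, with a log2 fold change of 0.67 (SE 0.22, adjusted p = 0.0186, edgeR). Psmb10 stood at 96.8, 94.3, 73.7 and 75.7, against 58.2 elsewhere, with a log2 fold change of 0.61 (SE 0.16, adjusted p = 0.00177, edgeR). Both were higher in 4 of 4 sections.

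The other hypothalamic genes moved less. Psmd12, a lid subunit, stood at 126, 112, 111 and 102 CPM, against 82.2 elsewhere (log2 fold change 0.41, SE 0.13, adjusted p = 0.0138, edgeR). Psmb6 stood at 196, 259, 166 and 239, against 181 (0.28, SE 0.10, adjusted p = 0.0313, edgeR). Psmb1 stood at 273, 342, 221 and 293, against 246 (0.25, SE 0.09, adjusted p = 0.0382, edgeR), and Untrained 1 was the section that did not show its direction. The median log2 fold change was 0.13 over the 37 genes and −0.01 over all genes, with 27 above 0. DESeq2 called 4. The calls of Psme1 and Psmb10 stood in the 9 alternatives in which these genes were tested. In a 10th, with counts thinned to the smallest total, both fell under the filter and could not be called. The calls of Psmb1 and Psmb6 stood in 2 and 4 of 10, and with thinned counts the log2 fold change of Psmb1 was −0.06. The count was 3 without Trained 1, 2 without Trained 2 and 3 without Untrained 2: Psme2 was not called without any 1 of these 3 sections, Psmd12 without either trained one, Psmb1 without any 1 of the 3, and Psmb6 without Trained 2 or Untrained 2.

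Lists of marker genes for other cell types were read in the same spots. Inhibitory neuron markers (5 of 5 genes detected) summed to 1836, 1221, 1871 and 1981 CPM in the hypothalamus of Trained 1, Trained 2, Untrained 1 and Untrained 2, led by Sst except in Trained 2, where Gad1 led. In the thalamus they summed to 547, 521, 673 and 524. Their mean was 1727 in the hypothalamus, 1669.9 in white matter and 1557 in the striatum, and Psme1, Psme2 and Psmb10 were called in neither of the last 2 (edgeR). Endothelial markers (4 of 4, led by Ly6c1) summed to 148, 159.8, 138 and 156 in the hypothalamus, with a mean of 150.4 there, 177 in the thalamus and 217 in white matter. Ependymal markers (3, 2, 0 and 3 of 4, led by Rarres2 where detected) summed to 12.1, 9.59, 0 and 16.6. Neuron markers (6 of 6, led by Snap25) averaged 3721.5 in the hypothalamus. They averaged 2766 in white matter and 4034 to 7291 in the other tested regions. Astrocyte markers (5 of 5, led by Aldoc) averaged 1602 in the hypothalamus. They averaged 1716 in white matter and 931 to 1542 in the other tested regions. Not every list is given here, and the part of the lists in the level of Psme1, Psme2 and Psmb10 was not tested.

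Interferon and antigen presentation genes, which interferon switches on along with the immune-type subunits, were read from a list of 10. In the hypothalamus 10, 10, 6 and 10 of them were detected, led by B2m, and summed to 283, 257, 248.8 and 376 CPM. In the thalamus 10, 10, 7 and 9 summed to 302, 237, 249.05 and 250.2. In each section both regions lay under white matter, where 6, 10, 4 and 8 genes summed to 387, 336, 524 and 567. Of the list, 3 genes had enough counts for the region test, B2m, H2-D1 and H2-K1. Of these, 0 passed in the hypothalamus (edgeR, with 0 at an unadjusted p under 0.05; DESeq2 was not counted for this list), where 24.8% of all genes did. In white matter, where 28.1% of all genes passed, 3 of 3 were higher, at log2 fold changes of 0.82 (B2m), 1.11 (H2-D1) and 0.92 (H2-K1), with adjusted p of 0.000240, 0.000235 and 0.0387 (edgeR). H2-D1 was lower in CA1 (−1.07), B2m higher in the upper cortical layers (0.67) and H2-K1 higher in the medial habenula (1.07). Psme1, Psme2 and Psmb10 had unadjusted p above 0.05 in white matter. The part of interferon in the levels of Psme1, Psme2 and Psmb10 was not tested.

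In the thalamus, 3 proteasome genes passed, Psmc1 higher and Psme1 and Psmd7 lower, where 35% of all genes passed. Psme1 stood at 34.8, 26.3, 47.7 and 29.8 CPM in Trained 1, Trained 2, Untrained 1 and Untrained 2, from 19, 37, 9 and 15 UMIs. Each thalamic value lay under the mean of the section's other regions, 64.2 over all sections, and trained and untrained values overlapped. The log2 fold change was −1.01 (SE 0.18, adjusted p = 3.82e-06, edgeR; lower in 4 of 4 sections). Psmc1, an ATPase, stood at 159, 173, 223 and 197, against 132 elsewhere, and the thalamus was the highest tested region in each section. Its log2 fold change was 0.42 (SE 0.10, adjusted p = 0.000709, edgeR). Psmd7, a lid subunit, stood at 82.4, 92.4, 53.0 and 75.5, against 100.5 elsewhere (−0.32, SE 0.13, adjusted p = 0.0490, edgeR). The calls of Psme1 and Psmc1 stood in 9 of 9 alternatives. That of Psmd7 stood in 2 of 9 and was lost without any 1 of the 4 sections. The median log2 fold change was −0.05 over the proteasome genes and −0.02 over all genes, and DESeq2 called 2.

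In CA1, the output layer of the hippocampus, 1 proteasome gene passed, where 14.3% of all genes did. It was Psmb5, at 304, 300.9, 403 and 282 CPM in Trained 1, Trained 2, Untrained 1 and Untrained 2, against a mean of 214 over the other regions. All sections were higher in CA1, and the trained values lay between the untrained ones. The log2 fold change was 0.46 (SE 0.12, adjusted p = 0.00338, edgeR), it was called in 10 of 10 alternatives, and DESeq2 called 1 gene. The neighbouring DG had Psmb5 at 235, 343, 252 and 268 (log2 fold change 0.29, SE 0.13, adjusted p = 0.112, edgeR), which did not pass, and CA3, which was not tested, at 348, 348, 351 and 235. Without Trained 1 or without Trained 2, the count in CA1 was 2.

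Single lower genes were found in the cortex. In the upper layers, 1 passed, where 16% of all genes did: Psmb2, a non-catalytic beta subunit, stood at 96.9, 134, 107 and 78.4 CPM, against 132 elsewhere (log2 fold change −0.48, SE 0.16, adjusted p = 0.0317, edgeR). It was lower in 4 of 4 sections, DESeq2 called 0, and the call was lost without Trained 1 and without Untrained 2. In layer 6, 1 passed, where 11.3% of all genes did: Psme2 stood at 12.01, 18.1, 11.9 and 26.8 from 3, 11, 1 and 5 UMIs, against 38.9 elsewhere (−1.08, SE 0.34, adjusted p = 0.0232, edgeR). It too was lower in 4 of 4 sections, DESeq2 called 1, and the call was lost without Trained 1, without Trained 2 and without Untrained 1. Psme1, its partner, stood at 60.1, 57.4, 83.1 and 43.0 in layer 6.

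In 4 regions the edgeR test called 0 proteasome genes, and DESeq2 called 0 as well. In DG 17% of all genes passed, and 4 proteasome genes had an unadjusted p under 0.05, as did 28.4% of all genes. In the medial habenula 9.26% of all genes passed, and 3 proteasome genes had an unadjusted p under 0.05, as did 20.7% of all genes, with Psmf1 lowest (log2 fold change 0.86, SE 0.30, adjusted p = 0.0574, edgeR). Psmf1 stood there at 65.8, 83.6, 24.6 and 41.3 CPM, from 10, 17, 1 and 5 UMIs. Psme1 stood there at 72.4, 113, 73.9 and 74.4, from 11, 23, 3 and 9 UMIs. In the striatum 19.4% of all genes passed and 3 proteasome genes had an unadjusted p under 0.05, as did 28.96% of all genes, with Psmb10 lowest at −0.49 (SE 0.19, adjusted p = 0.0627, edgeR). In white matter 28.1% of all genes passed and 3 proteasome genes had an unadjusted p under 0.05, as did 37.6% of all genes, with Psma1 lowest at −0.49 (SE 0.19, adjusted p = 0.0510, edgeR). Single sections moved these counts: 1 gene was called in DG without Trained 1 or without Trained 2, 1 in the medial habenula and 1 in the striatum without Untrained 1, and 1 in white matter without Trained 2.

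**Figure D2:**
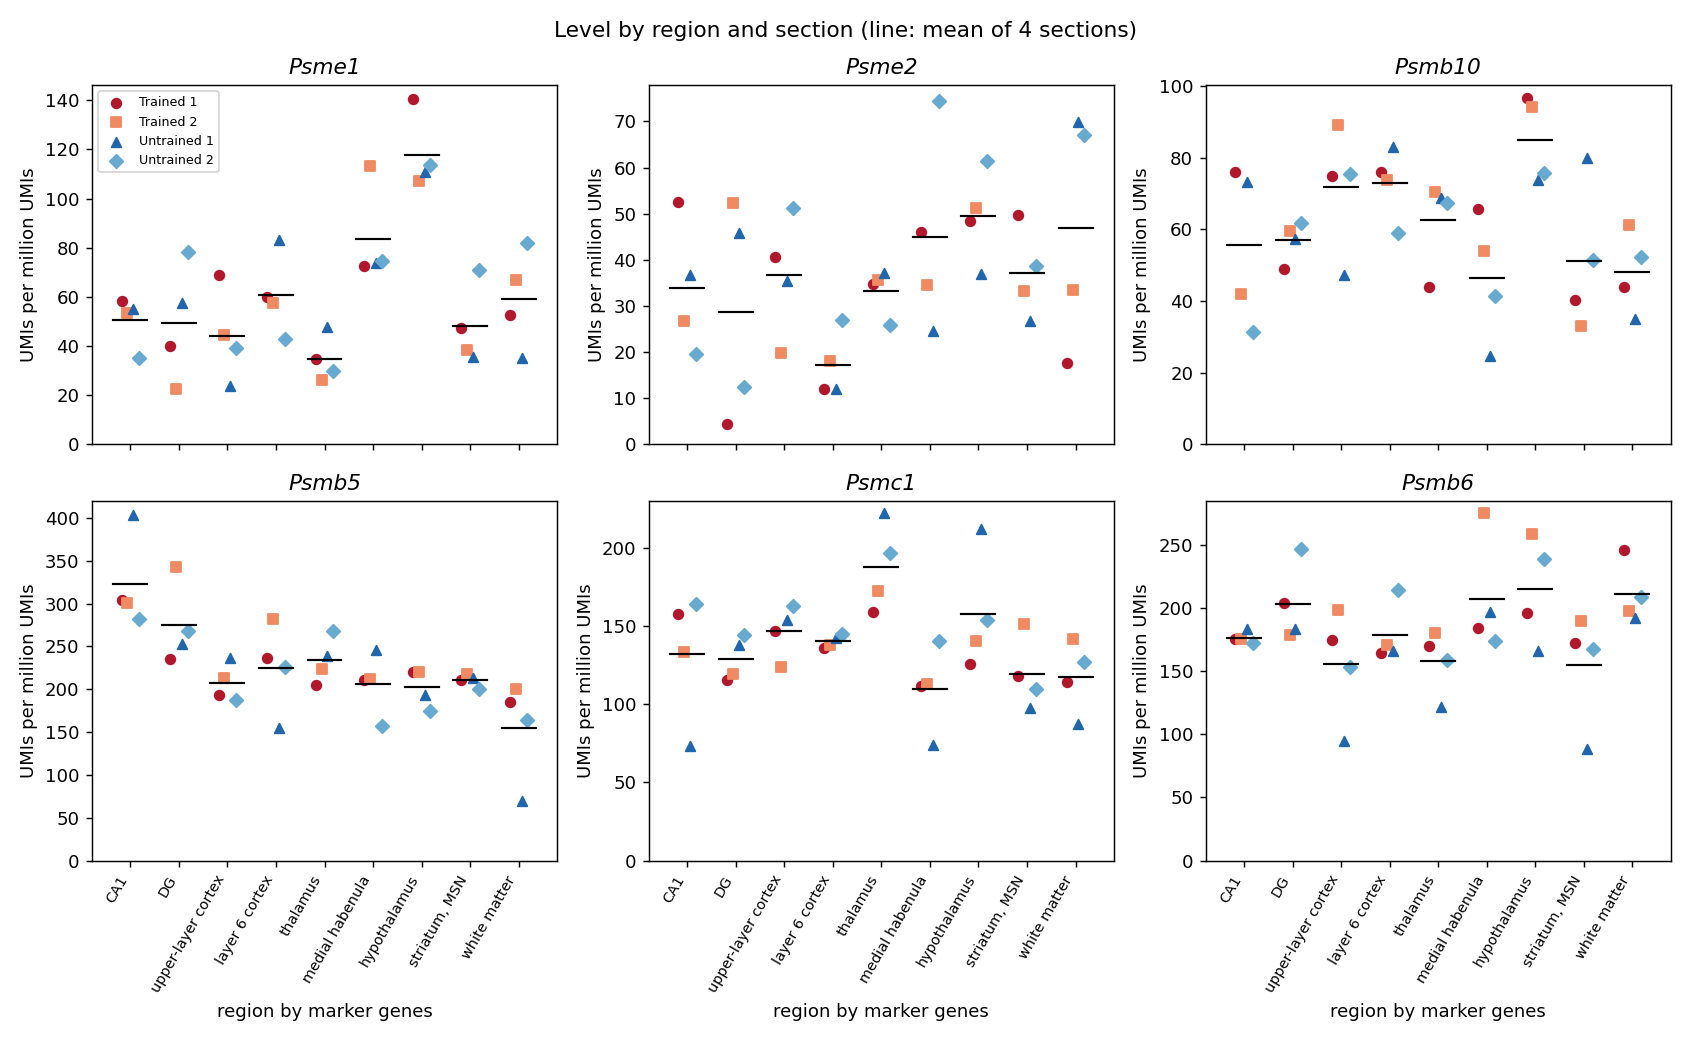
Level of 6 proteasome genes in each tested region, in CPM, with 1 point for each section and a line at the mean of the 4 sections. Psme1 averages 118 in the hypothalamus and 34.6 in the thalamus, and Psmb5 averages 322 in CA1.

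**Figure D3:**
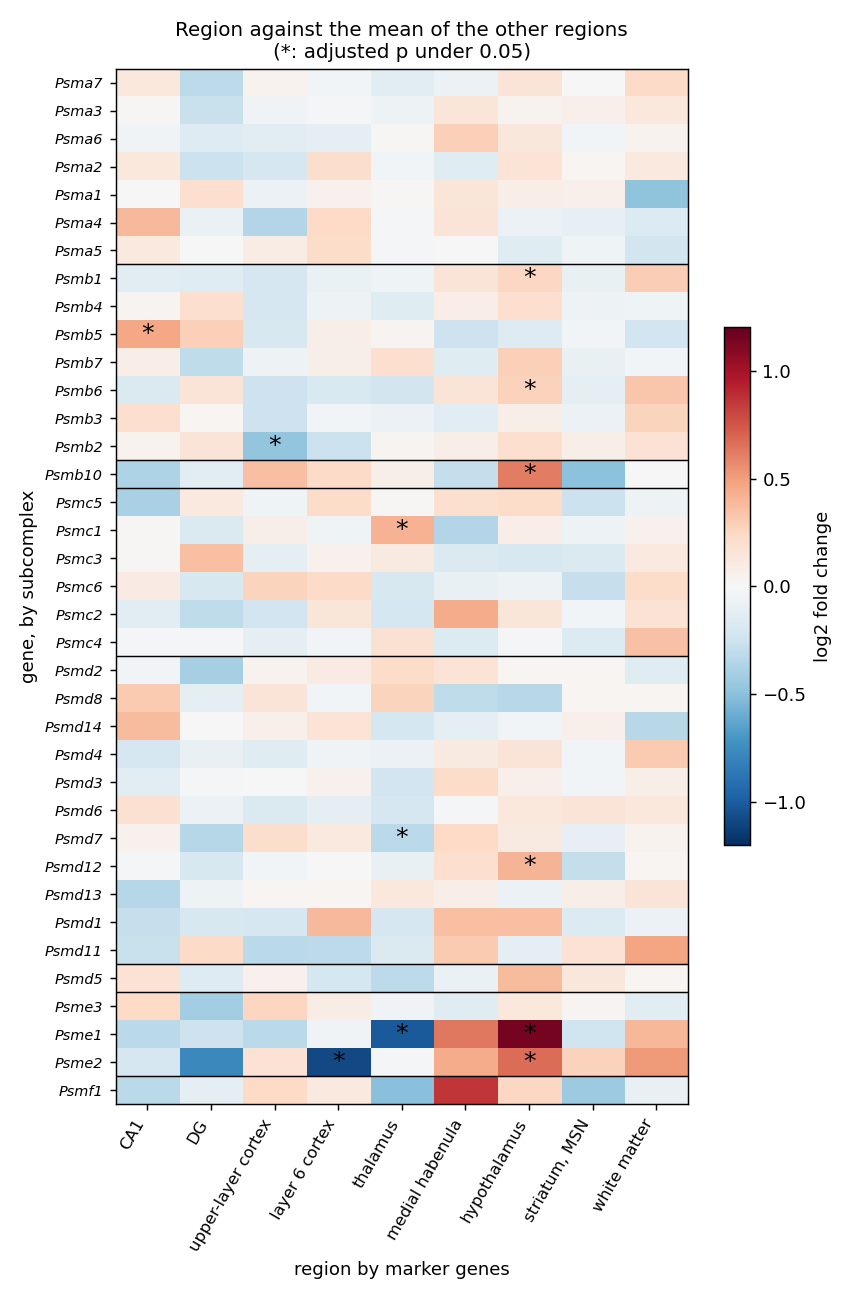
Log2 fold change of each tested proteasome gene in each region against the mean of the other regions, with genes down the side by subcomplex, red for higher and blue for lower, with a star where the adjusted p is under 0.05. There are 12 stars, 6 of them in the hypothalamus.

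Psmb8 and Psmb9 were too sparse for a region test. Psmb8 had at most 12 UMIs in a tested region, in the thalamus, and 10 in the hypothalamus. In the medial habenula it had 0 in all 4 sections, which allows up to 19.8, 14.8, 73.9 and 24.8 CPM. In the meninges, which were not tested, it had 1, 2, 1 and 4 UMIs, or 23.1, 22.6, 45.1 and 71.1 CPM. Psmb9 had at most 4 UMIs in a tested region, the striatum.

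Training was then compared within each region, the question the study put to the hippocampal layers. In the hippocampus 0 proteasome genes passed: 0 of 33 in CA1, where 0.0216% of all genes did, and 0 of 32 in DG, where 0% did. At an unadjusted p under 0.05 there was 1 in CA1 and 0 in DG (edgeR), where 4.62% and 3.84% of all genes were, and DESeq2 called 0 in both. The smallest p in CA1 was that of Psmd5, a base chaperone, at 58.5 and 26.7 CPM in trained and 73.3 and 86.2 in untrained sections. These groups did not overlap (log2 fold change −1.09, SE 0.47, adjusted p = 0.984, edgeR). Psma2 (0.51) and Psmb3 (−0.47) followed in CA1, both with an adjusted p of 0.984 (edgeR). In DG the 3 smallest p belonged to Psmb7 (0.72), Psme1 (−1.07) and Psmc4 (−0.71), each with an adjusted p of 0.995 (edgeR).

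In DG Psmb7 stood at 204 and 134 CPM in the trained and at 57.4 and 132 in the untrained sections, from 46, 18, 5 and 32 UMIs. Trained 2 and Untrained 2 were thus nearly equal and Untrained 1 stood lowest. Psme1 in DG stood at 40.0 and 22.4 in trained and 57.4 and 78.3 in untrained sections, from 9, 3, 5 and 19 UMIs. In neither gene did the groups overlap. The median log2 fold change in DG was −0.15 over the proteasome genes and 0.01 over all genes, and in CA1 −0.01 and 0.00.

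In the cortex, 0 of 36 proteasome genes passed in the upper layers, where 0% of all genes did, and 0 of 35 in layer 6, where 0% did. At an unadjusted p under 0.05 there were 0 and 1 (edgeR), where 4.23% and 5.74% of all genes were, and DESeq2 called 0 in both. The 1 in layer 6 was Psmb7, at 168 and 146 CPM in trained and 202 and 279 in untrained sections, which did not overlap (log2 fold change −0.77, SE 0.26, adjusted p = 0.823, edgeR). Psmc3 (0.53, adjusted p = 0.901) and Psme3 (−0.62, adjusted p = 0.920) followed in layer 6 (edgeR). In the upper layers Psmc5 (0.49), Psma1 (0.47) and Psmd8 (0.43) had the smallest p, each with an adjusted p of 0.999 (edgeR). The median log2 fold change over the proteasome genes was 0.07 in the upper layers and −0.03 in layer 6, against 0.01 and 0.00 over all genes.

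In the thalamus 0 of 39 proteasome genes passed, where 0.0633% of all genes did, and in the hypothalamus 0 of 39, where 0.041% did. At an unadjusted p under 0.05 there were 0 and 0 (edgeR), where 5.71% and 6.03% of all genes were, and DESeq2 called 0 in both. Psmd4, a ubiquitin receptor (−0.46, adjusted p = 0.873), Psmc1 (−0.37, adjusted p = 0.884) and Psmb5 (−0.32, adjusted p = 0.912) had the smallest p in the thalamus (edgeR). Psmc1 (−0.40), Psmc3 (−0.42) and Psmd13 (0.45) had the smallest in the hypothalamus, with adjusted p of 0.901, 0.901 and 0.916 (edgeR). Psme1 there had a log2 fold change of 0.07 (SE 0.26, edgeR). Medians over the proteasome genes were 0.05 in the thalamus and 0.06 in the hypothalamus, against 0.00 and 0.02 over all genes.

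In the medial habenula 0 of 31 passed, where 0% of all genes did, in the striatum 0 of 37, where 0.0772% did, and in white matter 0 of 27, where 0% did. Unadjusted p under 0.05 were found for 1, 1 and 0 proteasome genes (edgeR) and for 2.99%, 6.67% and 6.49% of all genes, and DESeq2 called 0 in each. In the habenula Psme3 stood at 46.1 and 29.5 CPM in trained and at 172 and 74.4 in untrained sections, which did not overlap. These values rest on only 7 and 6 UMIs in trained and 7 and 9 in untrained sections. Its log2 fold change was −1.51 (SE 0.64, adjusted p = 0.9998, edgeR), and Psmb3 (0.87) and Psmd4 (0.79) followed. In the striatum Psma2 stood at 168 and 204 against 107 and 135, with no overlap (0.51, SE 0.24, adjusted p = 0.734, edgeR), followed by Psmd14, the deubiquitinase of the lid (0.56), and Psmb10 (−0.80). In white matter Psmc3 (−0.57), Psmb5 (0.47) and Psmd8 (0.55) had the smallest p, with adjusted p of 0.871, 0.877 and 0.877 (edgeR). Medians over the proteasome genes were −0.01 in the habenula, 0.13 in the striatum and 0.11 in white matter, and 0.00 over all genes in each.

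Layers were also combined, a choice made after seeing the data. With CA1, CA3 and DG spots summed, 0 of 39 proteasome genes passed, where 0% of all genes did, with 0 at an unadjusted p under 0.05 (edgeR; 4.38% of all genes) and 0 by DESeq2. Psmd5 (−0.50), Psmd3 (0.41) and Psmb7 (0.39) had the smallest p, each with an adjusted p of 0.989 (edgeR). With the cortical layers summed, 0 of 39 passed, where 0.0112% did, with 1 at an unadjusted p under 0.05 (Psma1, 0.48, SE 0.21, adjusted p = 0.837, edgeR), where 5.52% of all genes were, and 0 by DESeq2, and Psmb7 (−0.42) and Psme2 (−0.64) followed with adjusted p of 0.888 and 0.916. A training effect that differs among the 9 regions was tested too: 0 of 37 genes passed, where 0.0452% of all genes did, 1 had an unadjusted p under 0.05 (Psmb7, adjusted p = 0.9998, edgeR), as did 4.34% of all genes, and DESeq2 called 0.

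The summed proteasome level of each region was not tested. In DG it was lower in both trained sections, at 4609.8 and 4194 CPM against 4772.5 and 4690.5 (0.930 times). Of the other tested regions, it was higher in both trained sections in the upper layers, the medial habenula, the striatum and white matter, at 1.10, 1.08, 1.10 and 1.12 times. It was also higher in both in CA3, layer 5 and the meninges, which had too few spots for the gene tests, at 1.10, 1.16 and 1.18 times, with 62 proteasome UMIs in CA3 of Untrained 1. The counting SD, the error from the number of proteasome UMIs alone, was 143 CPM in DG of Trained 1 and 139 in Untrained 2. These sections held the nearest values in DG, which lay closer than either SD. The same held for the nearest trained and untrained values in the upper layers, the medial habenula and white matter, but not in the striatum. With the abundant genes left out of the total, the groups did not overlap in DG (0.927 times) and the striatum (1.06 times) and overlapped in the upper layers, the medial habenula and white matter. In DG the astrocyte markers (5 of 5, led by Aldoc) summed to 995 and 1925 in trained and to 1480 and 1146 in untrained sections, and the neuron markers (6 of 6, led by Snap25) to 4099 and 3478 against 4382 and 4369. Endothelial markers (4, 4, 2 and 4 of 4, led by Ly6c1) were higher there in both trained sections, at 124 and 209 against 68.8 and 111.

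Marker lists also parted by group in the regions where the proteasome level was higher, and some of them follow, trained before untrained, which are not all and not always those that differed most. Neuron markers (6 of 6, led by Snap25) summed to 7203 and 8129 against 6676 and 7156 CPM in the upper layers, and to 3888 and 3933 against 4225 and 4089 in the striatum, where inhibitory neuron markers (5 of 5, led by Sst, or Gad1 in Trained 2) summed to 1607 and 1579.9 against 1518 and 1524. In white matter, inhibitory neuron markers (5 of 5, led by Gad1, or Sst in Untrained 1) summed to 1829.6 and 2169 against 1346 and 1335. White matter markers (7 of 7, led by Mbp) summed there to 31227 and 33969.7 against 35839.8 and 38367. In the medial habenula, blood markers (4, 4, 5 and 4 of 5, led by Hbb-bs) summed to 296 and 566 against 591 and 1629. Endothelial markers (3, 4, 3 and 3 of 4, led by Ly6c1) summed there to 125 and 128 against 172 and 248. The part of these lists in the proteasome level of DG and of the other regions was not tested.

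Other genes of the ubiquitin and proteasome pathway were read from 7 lists, and those named here were picked after their values were seen. Over whole sections, 0 of their 48 tested genes passed the test of training (edgeR; DESeq2 was not counted for these lists), where 0.0145% of all genes did, and 1 had an unadjusted p under 0.05, where 7.96% of all genes had, Sem1 (log2 fold change 0.35, SE 0.14, adjusted p = 0.594, edgeR). Among regions, Rps27a, which encodes ubiquitin joined to a ribosomal protein, was higher in the hypothalamus (log2 fold change 0.54, adjusted p = 1.56e-08, edgeR) and in white matter (0.53) and lower in the thalamus (−0.41), the upper layers (−0.46) and CA1 (−0.30). Ubb, a polyubiquitin gene, passed in the hypothalamus (0.25) and the upper layers (−0.22).

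Of tested ubiquitin and ubiquitin-activating genes 4 of 5 varied among regions, where 60.6% of all genes did. The counts that follow stand beside the same share. Of tested interferon and antigen presentation genes 3 of 3 varied, and of proteasome-associated genes 5 of 6. Usp14, a deubiquitinase that docks on the cap, was higher in the hypothalamus (0.39, adjusted p = 0.00986, edgeR) and lower in white matter (−0.68), and Zfand5 was lower in the hypothalamus (−0.46) and higher in the upper layers (0.38). Akirin2, which carries proteasomes into the nucleus, was lower in the thalamus (−0.36) and white matter (−0.65). Of 8 shuttle and unfoldase genes 4 varied: Vcp was lower in CA1 (−0.42) and DG (−0.51) and higher in the medial habenula (0.45) and the thalamus (0.24). Of 8 ligase and conjugating genes 3 varied, with Ube3a (0.44) and Nedd4 (0.25) higher in the hypothalamus. Of assembly genes 1 of 3 varied, Psmg4, lower in the upper layers (−1.17) and higher in the striatum (0.56). Of the 2 tested genes for the transcription of proteasome genes, Nfe2l1 varied, lower in DG (−0.83) and higher in the medial habenula (0.63), and the other, Ddi2, did not vary over all regions (adjusted p = 0.149, edgeR) but was higher in DG (0.89, adjusted p = 0.0192, edgeR).

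In the genome, the 43 genes lie on 16 chromosomes (GRCm38, GENCODE, all 43 matched by identifier). Psme1 lies at chr14:55578123-55581529 and Psme2 at chr14:55587441-55591113 on the opposite strand, 5911 bases apart. Psmb9 and Psmb8 lie 9956 bases apart on chromosome 17, and Psmb5 and Psmb11 lie 3410 bases apart on chromosome 14. For 10 genes an exon overlaps an exon of another counted gene on the opposite strand, among them Psmb9 with Tap1 (212 bases), Psmb7 with Nek6 (253 bases) and Psme1 with Emc9 (14 bases), and for 0 genes on the same strand.

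Promoters were searched for motifs of factors known for proteasome and interferon genes. RefSeq promoters (GRCm38.p6, 250 bases before to 50 after the start of transcription) were at hand for 36 of the genes. On either strand, the antioxidant response core TGACNNNGC was found in 5 of the 36 genes (13.9%) and in 13.99% of 27025 genes, and the CCAAT box CCAAT in 14 (38.9%) and in 41.1% of genes. The interferon-gamma-activated core TTCNNNGAA was found in 2 (5.56%) and in 9.55% of genes, and the interferon-stimulated core (GAAA, any 2 bases, GAAA) in 4 (11.1%) and in 3.99% of genes. Shown are promoters of genes that passed in a region against the mean of the others and hold one of these motifs other than the common CCAAT box, with the motif in capitals: the interferon-stimulated core for Psme1 (chr14:55578244-55578543, plus strand, bases 10 to 19 after the start) and the antioxidant response core for Psmb5 (chr14:54617946-54618245, minus strand, bases −47 to −39), Psmb6 (chr11:70525107-70525406, plus strand, bases −9 to −1) and Psmd12 (chr11:107479278-107479577, plus strand, bases −247 to −239). Such a match describes the letters and is not evidence of binding.
Psme1: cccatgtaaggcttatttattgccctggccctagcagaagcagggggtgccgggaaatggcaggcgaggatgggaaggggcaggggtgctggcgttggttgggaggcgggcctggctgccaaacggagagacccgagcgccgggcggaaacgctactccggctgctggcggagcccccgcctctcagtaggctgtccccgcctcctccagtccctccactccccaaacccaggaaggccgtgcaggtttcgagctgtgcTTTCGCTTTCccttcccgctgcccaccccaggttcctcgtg
Psmb5: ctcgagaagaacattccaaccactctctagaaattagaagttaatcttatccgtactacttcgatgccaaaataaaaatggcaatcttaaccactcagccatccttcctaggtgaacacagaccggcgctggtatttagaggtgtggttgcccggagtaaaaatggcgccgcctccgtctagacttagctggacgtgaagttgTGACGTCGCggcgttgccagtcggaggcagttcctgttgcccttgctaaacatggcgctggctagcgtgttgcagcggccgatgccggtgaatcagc
Psmb6: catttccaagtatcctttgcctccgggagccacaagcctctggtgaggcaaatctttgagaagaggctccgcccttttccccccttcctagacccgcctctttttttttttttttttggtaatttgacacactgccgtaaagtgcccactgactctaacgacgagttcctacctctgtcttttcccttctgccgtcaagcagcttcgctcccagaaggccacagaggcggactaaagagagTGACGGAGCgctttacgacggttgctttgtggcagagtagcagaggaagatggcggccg
Psmd12: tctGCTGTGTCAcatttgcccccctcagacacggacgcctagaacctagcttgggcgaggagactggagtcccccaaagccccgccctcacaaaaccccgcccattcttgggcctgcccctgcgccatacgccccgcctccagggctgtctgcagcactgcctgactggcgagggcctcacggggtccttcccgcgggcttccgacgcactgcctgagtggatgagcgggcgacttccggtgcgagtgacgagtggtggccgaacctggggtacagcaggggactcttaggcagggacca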

How the data were processed

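Spatial transcriptomes (10x Genomics Visium) of 4 mouse brain sections, 2 from trained and 2 from untrained mice, were reanalysed. UMI counts for each gene and spot were taken as deposited, without normalization. The authors also deposited other values, the spot positions and tissue flags, which were used as array coordinates. Sources disagree on how the counts were made: the matrix header names Space Ranger 1.2.2, the paper names bcl2fastq2, TrimGalore and a later version of Space Ranger on mm10, and the submitters' notes name Cell Ranger 8 and STAR on GRCm39.

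Each spot was scored for marker lists of 14 regions on a log scale of counts per 10000. It was assigned to the leading list when the score was at least 0.5, the lead over the second list at least 0.1, and at least 2 of its 6 neighbours led with the same list. This rule and its limits were set after seeing section maps, with 3 settings judged on maps and spot counts and not on proteasome values. Regions with 20 spots in every section were tested.

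Counts were summed over sections and over regions of sections and compared with edgeR 4.0.16 (R 4.3.3; filterByExpr, TMM, glmQLFit, quasi-likelihood F-test), adjusted by Benjamini-Hochberg over all genes, with a threshold of 0.05. Training was tested on 4 sums with 2 residual degrees of freedom, and regions on 36 sums with the section as a block. DESeq2 1.42.0 was run beside it. CPM are UMIs in 1000000 UMIs of the same spots, and a count of 0 is given a limit of 3 counts. Per-section shares carry Wilson 95% intervals. Depth, from 3560294 to 10330015 UMIs in a section, limits sparse genes most.

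Genes named with statistics are Psmb5 to Psmb10, Psme1, Psme2, Psme3 and Psmf1, the 3 called genes with the largest and the 3 with the smallest fold change in each region, and every called gene or the 3 with the smallest p in each test of training. Psma1 is also named in white matter, where it had the lowest p and no proteasome gene was called. Ranges name the highest and lowest gene of each subcomplex. Members and lists were chosen with earlier results of these data known. Alternatives were another tool, no filter, abundant genes left out (mitochondrially encoded genes, Bc1, Ttr, Gm42418 and hemoglobin genes), thinned counts, a replicate block, no section block, a stricter lead of 0.75, scores averaged over neighbouring spots, and each section left out. Section images were not used.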

Additional observations from a re-analysis of the deposited data

Results flagged for a closer look

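The order of trained and untrained sections by the summed level of the proteasome genes was not the same in every region, while 0 proteasome genes passed the edgeR test of training in any tested region (0 by DESeq2, and 0 or 1 in each at an unadjusted p under 0.05). In DG every trained section was lower than every untrained one (0.930 times). In the upper cortical layers (1.10 times), the medial habenula (1.08 times), the striatum with other medium spiny neurons (1.10 times) and white matter (1.12 times) every trained section was higher than every untrained one, as also in CA3 (1.10 times), layer 5 of the cortex (1.16 times) and the meninges (1.18 times), which had too few spots for the gene tests. With the abundant genes left out of the total, the groups overlapped in the upper layers, the medial habenula and white matter and did not in DG and the striatum. Without the most abundant proteasome gene, they overlapped in the medial habenula and white matter and did not in DG, the upper layers and the striatum. This opposite ordering of all sections is why these values are listed here. Among the tested regions listed, all but the striatum had nearest trained and untrained values closer than the counting SD of either. In DG these values were 4609.8 CPM in Trained 1 (counting SD 143) and 4690.5 in Untrained 2 (counting SD 139). With 2 sections in each group, such an order can arise without a difference between groups. The difference between groups was not tested.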

How the results depend on the processing

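The count of 0 proteasome genes called for training stood in 78 of 78 alternatives that kept all sections, and in 47 of 48 that left a section out. For the whole section it ran from 0 to 2 without 1 section, with 2 called without Trained replicate 1. A section left alone in its group is assumed to vary like the others.

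With the replicate block, 0 were called in whole sections and in each region. The whole-section median was 0.02, and Psmd11 was at −0.50 and Psme3 at −0.34, while 47 genes in all were called. Sections with the same number did not pair: their deviations correlated at 0.0182 over 13810 genes, with only 2 pairs.

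Median log2 fold changes for training moved in 16 of 78 alternatives. With the stricter lead they were −0.0880 in DG, 0.0937 in layer 6, 0.107 in the thalamus, 0.116 in the medial habenula and 0.0728 in the striatum. By DESeq2 they were 0.0473 in the thalamus and 0.162 in the striatum. Without the filter they were 0.0969 in the thalamus, 0.101 in the medial habenula, 0.198 in the striatum and 0.269 in white matter. With thinned counts they were 0.0846 in the thalamus, 0.153 in the medial habenula and 0.1599 in the striatum, and with neighbouring spots averaged 0.0780 in the thalamus and 0.111 in the medial habenula. Without 1 section the medians ran from −0.0251 to 0.0663 in whole sections, −0.146 to −0.0513 in DG, 0.0439 to 0.0675 in the thalamus, −0.0464 to 0.253 in the medial habenula, 0.0344 to 0.171 in the striatum and 0.0146 to 0.352 in white matter. In CA1 they ran from −0.00475 to 0.141, in the hypothalamus from −0.00311 to 0.205 and in the upper layers from −0.0198 to 0.115, each highest without Untrained replicate 2, and in layer 6 from −0.0670 to 0.0224. They ran from −0.0680 to 0.0224 in the hippocampal layers and −0.0395 to 0.0979 in the cortical layers, combinations chosen after seeing the data. The cause was not tested.

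Counts of genes called by region held within 1.5 times in 46 of 65 alternatives. By DESeq2 the upper layers had 0. With abundant genes left out white matter had 1. With thinned counts the upper layers had 0, layer 6 had 0, the thalamus 0, the hypothalamus 1 and any difference among regions 1, on fewer counts. Without the section block 5 varied among regions. With the stricter lead the counts were CA1 2, DG 1, layer 6 0, medial habenula 1, hypothalamus 2, striatum 1 and white matter 1. With neighbouring spots averaged they were upper layers 2, thalamus 5, striatum 1 and white matter 2. Without 1 section they ran from 1 to 2 in CA1, 0 to 1 in DG, 0 to 1 in the upper layers, 0 to 1 in layer 6, 2 to 6 in the hypothalamus, 0 to 1 in the medial habenula, 0 to 1 in the striatum, 0 to 1 in white matter and 2 to 7 for any difference. The cause was not tested.

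Of single region calls, 47 of 61 alternatives that kept all sections kept direction and call, 13 lost the call, and 1 reversed: Psmb1 in the hypothalamus, at −0.0627 with thinned counts. The cause was not tested. Alternatives in which a gene fell under the filter gave no value.

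With the abundant genes left out of the total, the summed level in trained over untrained sections was 1.01 in whole sections, 1.02 in the upper layers, 0.976 in layer 6 and 1.003 in the thalamus, and it held within 1 SD in the other 16 of 20 alternatives. Without 1 section it ran from 1.002 to 1.18 in the hypothalamus and 1.04 to 1.22 in white matter. The cause was not tested. Psmb8, Psmb9, Psma8 and Psmb11 are limited by depth.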
